A study of Homo sapiens with 4 samples.

Results

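The genes described here are 53 named components of the cytoskeleton, listed by symbol: actins and the proteins that bind, nucleate, cut, cap or bundle actin filaments, tubulins and the tubulin-binding protein stathmin, and the intermediate filament proteins vimentin and the lamins. Of the 53 symbols, 52 were matched to a gene ID in the files (no ID was matched for MARCKS), out of 57820 IDs in a complete file. Of these, 50 passed the filter of a mean of at least 1 RPKM (reads per kilobase of exon, scaled to a fixed library depth) over the 4 libraries; MYL9 and RHOB lay below it. For the comparison of the 2 filament systems, 39 members were classed as actin-related, 10 as tubulin-related and 4 as intermediate filament genes. MOLM-13 is an established human acute myeloid leukaemia line. The 2 GADD45g induced libraries came from cells given doxycycline at 1 mg/ml, as the labels write it, over 4 days to overexpress GADD45G, and the 2 untreated control libraries came from the same line without treatment. Doxycycline and the gene it induces therefore cannot be told apart, and the construct, its promoter and whether the line is a single clone are not given in any label. Nothing in the labels says that the 2 libraries of a group came from separate cultures, so p-values measure only the spread between these libraries.

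Actin filaments grow by addition of ATP-bound actin monomers, which thymosins and profilin hold in a pool, and are branched by the Arp2/3 complex, cut and capped by gelsolin-family proteins, and pulled by non-muscle myosin on filaments that tropomyosins coat. Microtubules are built from alpha- and beta-tubulin dimers, nucleated by gamma-tubulin and destabilised by stathmin, and dividing cells rebuild them into the mitotic spindle. Lamins form the meshwork under the nuclear envelope, and B-type lamins are usually well expressed in proliferating cells while A-type lamin is higher in many differentiated cells.

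GADD45G itself was at 3236 and 2118 RPKM in induced libraries and at 10.51 and 0.289 RPKM in controls. The recovered depths were 18895470 and 15968886 reads for the induced libraries and 18778791 and 15683931 reads for the controls. CD33 and PTPRC, markers of myeloid and blood cells, were present in all 4 libraries (12.5 RPKM or more), whereas MPO and CD68 were at 0.278 RPKM or below in all 4. Both libraries numbered 1 stood apart by epithelial transcripts: the summed RPKM of 12 epithelial markers was 44.3 in induced 1 and 0.681 in induced 2, against 45.4 in control 1 and 1.04 in control 2. KRT8, KRT19 and EPCAM, defining genes among them, were each at 5.75 RPKM or more in both libraries numbered 1 and at 0 to 0.0375 RPKM in both numbered 2. This signal was alike in the 2 groups, and its part in the differences below was not tested. In bulk RNA, fewer cells of a type and less RNA per cell cannot be told apart.

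In induced cells the tubulin-system genes TUBA1B, TUBB, TUBB4B and STMN1 were 2.51-fold to 5.93-fold lower than in controls. Actin-related genes moved in both directions, and RHOC, GSN and the tropomyosin gene TPM4 rose 2.95-fold to 5.71-fold. The intermediate filament genes split into higher VIM and LMNA and lower LMNB1 and LMNB2. By limma at an adjusted p under 0.05, 19 of the 50 members tested were called, 38.0% of them, against 38.9% of all 10771 genes tested. Higher calls numbered 9 of 50 (18.0%), against 12.2% of all genes, and lower calls 10 of 50 (20%), against 26.7% of all genes. The share of members called was thus near that of all genes, and the list as a whole is not set apart by it. Both induced libraries lay above both controls for 18 members (24.1% of all genes did) and below both for 15 (45.8% of all genes), and the groups overlapped for 17 (70.0% of all genes did not overlap). The median log2 change was -0.07 over the members and -0.21 over all genes. With GADD45g induced 1 left out, fewer members were called higher, and so were fewer of all genes. Of the 19 called members, 12 were called in each of the 17 alternative settings tried: RHOC, GSN, TPM4, VIM, LMNB1, LMNB2, STMN1, TUBA1B, TUBB, TUBB4B, CDC42EP3 and CORO1A.

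**Figure D1:**
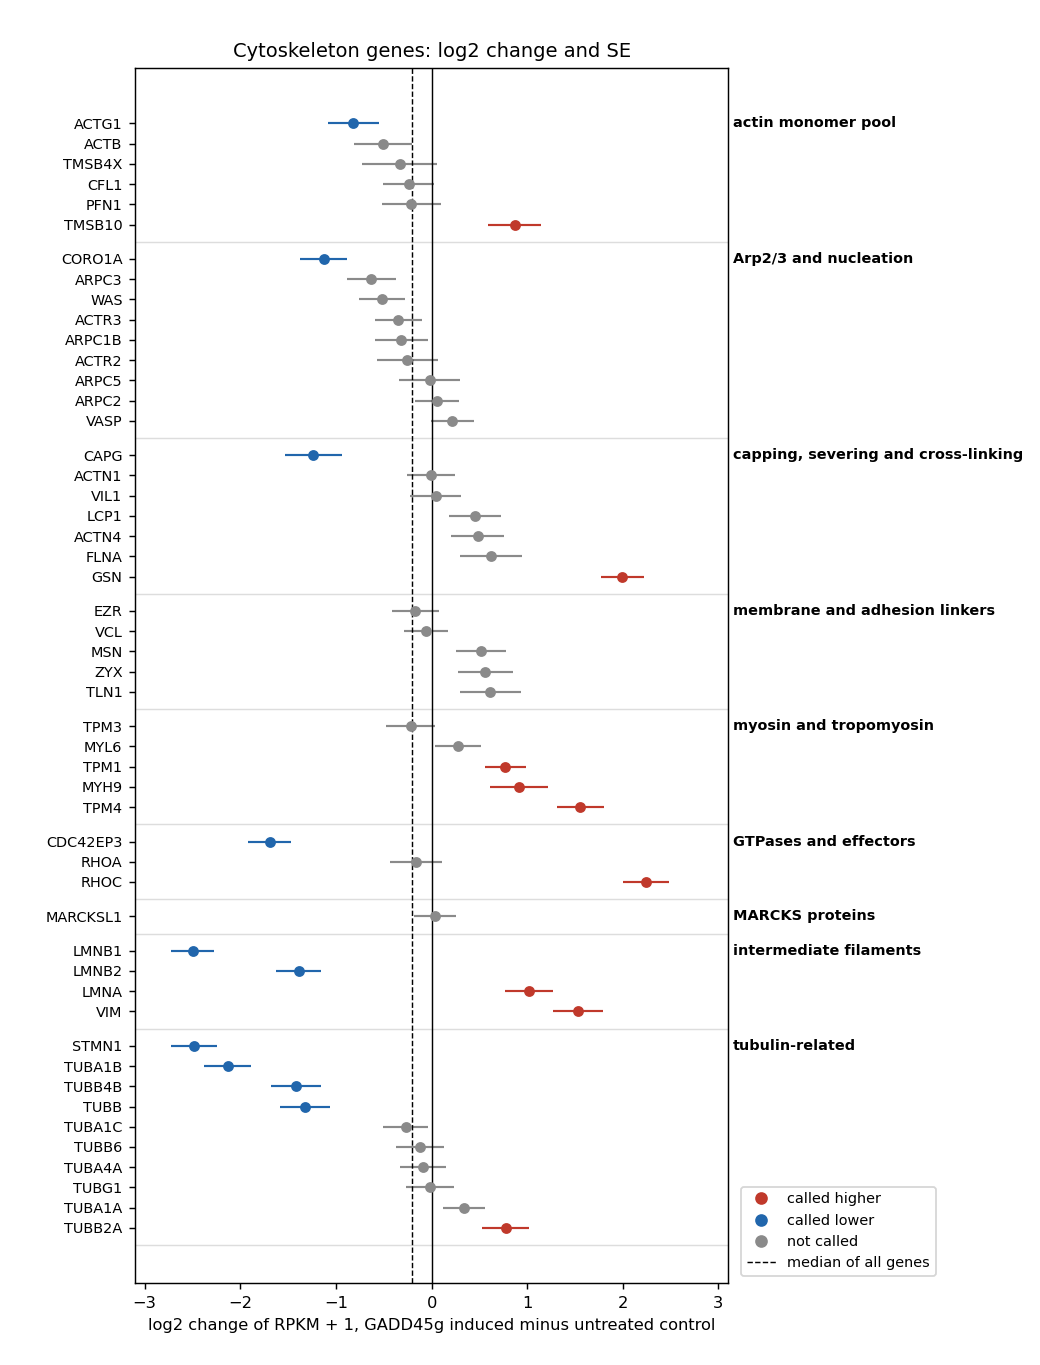
Log2 change of RPKM + 1 (GADD45g induced minus untreated control, x axis) for the 50 members tested, grouped by role; points are limma estimates from 2 libraries a group, bars are 1 SE, and the dashed line is the median of all genes (-0.21). Called changes run from -2.50 (LMNB1) to 2.24 (RHOC), and the 5 membrane and adhesion linkers hold no called gene.

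Transcripts of the actin monomer pool genes were read first. ACTG1 (ENSG00000184009.5), cytoplasmic gamma-actin, had 439.7 and 410.0 RPKM when induced, against 705.2 and 798.4 RPKM in controls. Both induced values lay below both control values, as for 45.8% of all genes. The induced mean was 1.77-fold lower (log2 change -0.82 ± 0.27 SE, n = 2 each, adjusted p = 0.0316). ACTB (ENSG00000075624.9), beta-actin, was at 776.2 and 496.7 RPKM in induced libraries and 961.0 and 815.2 RPKM in controls, in the same order but not called (log2 change -0.51 ± 0.31, adjusted p = 0.211). Together the pair summed to 1216 and 906.7 RPKM in induced libraries, against 1666 and 1614 RPKM in controls. The 2 actins are nearly identical in coding sequence and have many processed pseudogenes, and how the authors' counting placed reads that match several of them is not given, so the split between them is uncertain. TMSB10 (ENSG00000034510.4), thymosin beta-10, which sequesters actin monomers, moved the other way, with 1095 and 922.3 RPKM in induced libraries, against 496.1 and 609.1 RPKM in controls (log2 change 0.87 ± 0.28, adjusted p = 0.0302). Its paralogue TMSB4X, the most abundant member, differed more between libraries of a group than between groups: 2753 and 1694 RPKM when induced, 3877 and 1911 RPKM in controls. TMSB10 thereby made up 28.5% and 35.3% of thymosin RPKM in induced libraries, against 11.4% and 24.2% in controls. Profilin (PFN1) and cofilin (CFL1), which recycle monomers, were not called and their groups overlapped. Neither call in the pool held with any 1 library left out: ACTG1 had adjusted p = 0.104 without induced 1, 0.147 without induced 2, 0.0694 without control 1 and 0.111 without control 2, and TMSB10 had 0.168, 0.073, 0.147 and 0.0598 in the same order.

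The 9 genes grouped as Arp2/3 and nucleation held few calls. Of them 1 was called (11.1%, against 38.9% of all genes). No Arp2/3 subunit was called, and the median log2 change of the 9 was -0.32, against -0.21 over all genes. CORO1A (ENSG00000102879.11), coronin 1A, a filament-binding protein of blood cells, was at 42.2 and 37.1 RPKM in induced libraries, against 79.1 and 97.1 RPKM in controls (log2 change -1.13 ± 0.24, adjusted p = 0.00412). ARPC3, an Arp2/3 subunit, had 38.3 and 53.4 RPKM when induced and 74.4 and 67.1 RPKM in controls (log2 change -0.63, adjusted p = 0.0727), and WAS, the Wiskott-Aldrich protein that activates the complex, had 49.8 and 39.9 against 62.0 and 66.4 RPKM (log2 change -0.52, adjusted p = 0.116). Neither passed the threshold. In both, the 2 induced libraries lay below the 2 controls, as they did for 45.8% of all genes. The other 6 (ACTR2, ACTR3, ARPC1B, ARPC2, ARPC5 and VASP) had log2 changes between -0.35 and 0.22, with no call. ACTR2 and ARPC5 followed the library number rather than the group: ARPC5 was at 84.3 RPKM in induced 1 and 55.8 RPKM in induced 2, against 92.3 RPKM in control 1 and 52.5 RPKM in control 2.

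Among the capping, severing and cross-linking proteins, gelsolin and its relative CapG changed in opposite directions. GSN (ENSG00000148180.12), gelsolin, which severs and caps filaments, was at 19.9 and 18.5 RPKM in induced libraries and 3.50 and 4.68 RPKM in controls, 4.68-fold higher on average (log2 change 1.99 ± 0.23, adjusted p = 8.5e-05). CAPG (ENSG00000042493.11), which caps filament ends without severing them, had 101.5 and 61.1 RPKM when induced, against 210.5 and 166.2 RPKM in controls (log2 change -1.24 ± 0.30, adjusted p = 0.00731). No library of one group reached into the range of the other for either gene, nor in 70.0% of all genes. The CAPG call was lost without induced 2 (adjusted p = 0.0806) and without control 1 (adjusted p = 0.0808), while GSN was called with each library left out. The cross-linkers were not called: LCP1 (L-plastin), ACTN4 and FLNA had log2 changes of 0.45, 0.48 and 0.62. In these genes both induced libraries lay above both controls, as in 24.1% of all genes. FLNA, filamin A, had 375.4 and 378.3 RPKM when induced, against 176.2 and 340.9 RPKM in controls, so the distance rested largely on control 1. The log2 change of FLNA was 1.09 without control 2 and 0.144 without control 1. ACTN1 (log2 change -0.01) was near 0. VIL1, villin, an epithelial filament protein, was at 2.82 and 1.86 RPKM when induced and 2.97 and 1.59 RPKM in controls. It was higher in both libraries numbered 1, which also carried the epithelial transcripts. It still had 206 reads in induced 2 and 173 reads in control 2, and a link to those transcripts was not tested.

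The 5 proteins that tie filaments to membrane and adhesion sites gave 0 calls by limma at the adjusted threshold, against 38.9% of all genes called. They also gave 0 at an unadjusted p under 0.05, with log2 changes from -0.17 (EZR, ezrin) to 0.61 (TLN1, talin). MSN, moesin, had 384.1 and 404.7 RPKM in induced libraries, against 251.8 and 301.1 RPKM in controls (log2 change 0.52 ± 0.26, adjusted p = 0.144). ZYX, zyxin, a focal adhesion protein, had 111.9 and 106.9 RPKM when induced, against 56.8 and 96.2 RPKM in controls, where control 1 was the low library. TLN1 at 64.9 and 90.1 RPKM when induced overlapped the controls at 36.1 and 68.0 RPKM. With control 2 left out, so that control 1 alone was the baseline, log2 changes were 0.934 (ZYX) and 1.062 (TLN1). With control 1 left out they were 0.184 (ZYX) and 0.168 (TLN1). With TMM scaling MSN (adjusted p = 0.0355), TLN1 (0.048) and ZYX (0.0411) were each called higher. With upper quartile scaling and with quantile normalization they were not called.

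Myosin and tropomyosin genes were the members with the most calls in 1 direction on the actin side. Of 5 tested, 3 were called higher and none lower, where 12.2% of all genes were called higher and 26.7% lower. Their median log2 change was 0.77, against -0.21 over all genes. The group is small, and role groups were chosen with earlier results of these data known. TPM4 (ENSG00000167460.10), a tropomyosin of non-muscle cells, was at 255.3 and 257.1 RPKM in induced libraries, against 93.97 and 79.62 RPKM in controls, 2.95-fold higher (log2 change 1.56 ± 0.25, adjusted p = 0.000729). TPM1 (ENSG00000140416.15) was far lower but moved the same way, with 6.06 and 4.92 RPKM when induced, against 2.94 and 2.64 RPKM in controls (log2 change 0.77 ± 0.22, adjusted p = 0.0165). TPM3, in contrast, was at 52.9 and 40.7 RPKM when induced and 62.3 and 47.1 RPKM in controls, with overlapping groups. The make-up of the tropomyosin family shifted with this: TPM4 accounted for 81.2% and 85.0% of its RPKM in induced libraries, against 59.0% and 61.6% in controls, and TPM3 for 16.8% and 13.4%, against 39.2% and 36.4%. MYH9 (ENSG00000100345.16), the heavy chain of non-muscle myosin IIA, was at 181.3 and 182.4 RPKM when induced, against 71.8 and 128.6 RPKM in controls (log2 change 0.91 ± 0.30, adjusted p = 0.0341). The 2 induced values were almost the same, and the controls spread widely. Its partner light chain MYL6 had a log2 change of 0.28 (adjusted p = 0.387). MYL9, a smooth-muscle-type light chain, rested on 4 and 0 reads in induced libraries and 2 and 0 reads in controls, where a count of 0 allows up to 3 reads. MYH9 was not called without induced 1 (adjusted p = 0.103), without induced 2 (0.108) or without control 1 (log2 change 0.50, adjusted p = 0.205), and TPM1 was not called without induced 1 (0.166), without induced 2 (0.0594) or without control 2 (0.0631).

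RHOC (ENSG00000155366.12), a GTPase that promotes contractile actin structures, had the highest positive change of all members: 27.7 and 19.6 RPKM in induced libraries, against 4.32 and 3.97 RPKM in controls, 5.71-fold higher (log2 change 2.24 ± 0.24, adjusted p = 5.7e-05). RHOA, its close relative, was at 291.7 and 242.5 RPKM when induced and 340.7 and 261.3 RPKM in controls, with overlapping groups (log2 change -0.16 ± 0.27). RHOC was therefore 8.68% and 7.48% of the summed RHOA and RHOC RPKM when induced, against 1.25% and 1.498% in controls, so RHOA remained the more abundant of the pair per length. CDC42EP3 (ENSG00000163171.6), an effector that binds the GTPase CDC42, was at 5.58 and 6.92 RPKM when induced, against 21.6 and 23.2 RPKM in controls, 3.58-fold lower (log2 change -1.69 ± 0.22, adjusted p = 0.000217). RHOB was near the detection limit, with 13 and 0 reads in induced libraries and 11 and 1 reads in controls, again higher in both libraries numbered 1. MARCKSL1, a MARCKS-family actin and membrane binder, was at 10.1 and 8.33 RPKM when induced and 9.37 and 8.48 RPKM in controls (log2 change 0.04).

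**Figure D2:**
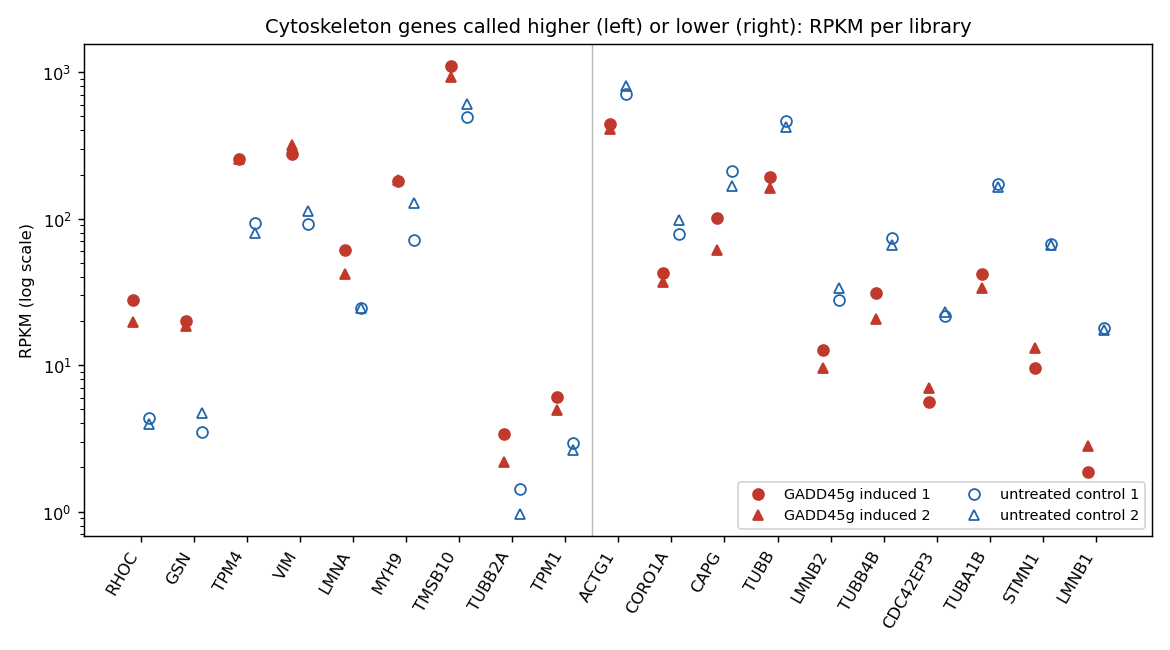
RPKM on a log axis in each library for the 19 called members, higher ones to the left of the line and lower ones to the right; filled red symbols are GADD45g induced libraries, open blue symbols untreated controls, circles number 1 and triangles number 2. In all 19, chosen by their calls in these libraries, the 2 groups do not overlap (nor in 70.0% of all genes). The narrowest separations are at MYH9, TMSB10 and TUBB2A.

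Tubulin genes moved unequally. TUBA1B (ENSG00000123416.11), the main alpha-tubulin gene of the controls, was at 42.2 and 33.7 RPKM in induced libraries, against 173.6 and 164.2 RPKM in controls, 4.45-fold lower (log2 change -2.13 ± 0.25, adjusted p = 9.5e-05). TUBB (ENSG00000196230.8), the main beta-tubulin gene, was at 190.9 and 161.7 RPKM when induced, against 461.1 and 423.5 RPKM in controls, 2.51-fold lower (log2 change -1.33 ± 0.26, adjusted p = 0.00231). TUBB4B (ENSG00000188229.5) followed, with 31.2 and 20.53 RPKM when induced, against 73.1 and 65.5 RPKM in controls (log2 change -1.42 ± 0.26, adjusted p = 0.00174). They were the most abundant alpha-tubulin gene and the 2 most abundant beta-tubulin genes of the controls. TUBA1C (log2 change -0.27), TUBA4A (-0.09), TUBB6 (-0.12), the gamma-tubulin gene TUBG1 (-0.02) and TUBA1A (0.34) had adjusted p-values from 0.238 to 0.966. TUBB2A (ENSG00000137267.5) was the exception among tubulins and was called higher, at 3.37 and 2.18 RPKM when induced, against 1.42 and 0.960 RPKM in controls (log2 change 0.78 ± 0.24, adjusted p = 0.0271). That gene rests on 110 and 60 reads in induced libraries and 46 and 26 reads in controls, and its call was lost without induced 1 (adjusted p = 0.259) and without control 2 (adjusted p = 0.123). STMN1 (ENSG00000117632.16), stathmin, which sequesters tubulin dimers and is abundant in dividing cells, was at 9.60 and 12.98 RPKM when induced, against 67.5 and 66.4 RPKM in controls, 5.93-fold lower (log2 change -2.48 ± 0.24, adjusted p = 3.5e-05). Of the 10 tubulin-related members, 4 were thus called lower (40.0%, against 26.7% of all genes) and 1 higher (10.0%, against 12.2%). With 1 library left out, log2 changes of the 4 lower genes spanned -2.681 (STMN1) to -1.125 (TUBB4B).

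The composition of tubulin RPKM shifted with these unequal changes. TUBA1B supplied 29.7% and 28.9% of alpha-tubulin RPKM in induced libraries, against 63.3% and 62.6% in controls. TUBA1C supplied 32.2% and 34.2% when induced, against 19.9% and 18.8%, and TUBA4A 28.2% and 25.6%, against 12.9% and 14.6%. TUBA1A made up 9.92% and 11.4% of it when induced, against 3.90% and 4.00% in controls. No single alpha-tubulin gene held a majority in the induced libraries. Among beta-tubulins TUBB kept the largest share in all 4 libraries, 77.9% and 82.0% when induced and 83.3% and 83.6% in controls. TUBB6 was at 7.98% and 6.47% of beta-tubulin RPKM when induced, against 3.28% and 3.25%. Alpha-tubulin genes, and likewise beta-tubulin genes, are close in sequence, so shares depend on how shared reads were counted.

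The 4 intermediate filament genes were all called, in both directions, against 38.9% of all genes. VIM (ENSG00000026025.9), vimentin, was at 274.1 and 319.6 RPKM in induced libraries, against 91.7 and 112.8 RPKM in controls, 2.90-fold higher (log2 change 1.53 ± 0.26, adjusted p = 0.000984). LMNA (ENSG00000160789.15), which encodes lamins A and C, was at 61.1 and 42.0 RPKM when induced, against 24.6 and 24.4 RPKM in controls (log2 change 1.02 ± 0.25, adjusted p = 0.0089). LMNB1 (ENSG00000113368.7), lamin B1, was at 1.85 and 2.79 RPKM when induced, against 17.8 and 17.4 RPKM in controls, 7.58-fold lower, the largest decrease of the members (log2 change -2.50 ± 0.23, adjusted p = 2.5e-05). LMNB2 (ENSG00000176619.6), lamin B2, was at 12.6 and 9.59 RPKM when induced, against 27.9 and 33.4 RPKM in controls, 2.76-fold lower (log2 change -1.39 ± 0.24, adjusted p = 0.0011). Summed lamin RPKM was 75.6 and 54.3 when induced and 70.2 and 75.2 in controls, while LMNA made up 80.8% and 77.2% of it when induced, against 35.0% and 32.5% in controls. LMNB1 made up 2.45% and 5.14% when induced, against 25.3% and 23.1%. LMNA lost its call without induced 1 (adjusted p = 0.0938), without control 1 (0.0568) and without control 2 (0.0542); VIM, LMNB1 and LMNB2 were called with each library left out.

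**Figure D3:**
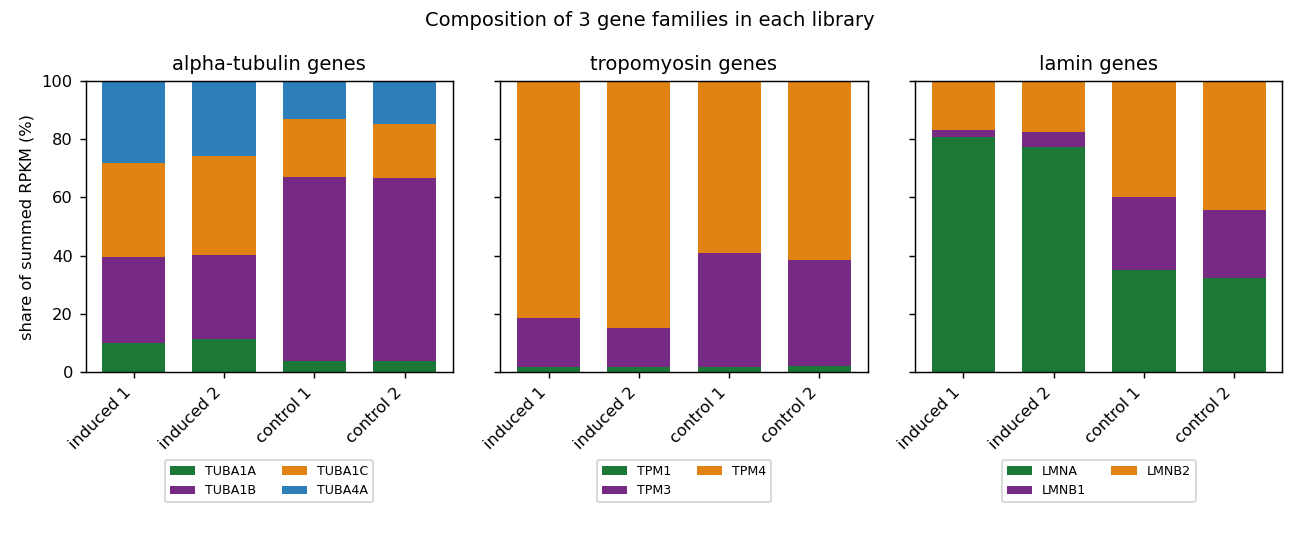
Share of summed RPKM (percent, y axis) taken by each gene of the alpha-tubulin, tropomyosin and lamin families in the 2 GADD45g induced and the 2 untreated control libraries (bars). TUBA1B holds 29.7% and 28.9% in induced libraries and 63.3% and 62.6% in controls, TPM4 81.2% and 85.0% against 59.0% and 61.6%, and LMNA 80.8% and 77.2% against 35.0% and 32.5%.

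Set side by side, the 36 actin-related members tested included 6 called higher (16.7%) and 4 called lower (11.1%), 27.8% in all. Over all genes, 12.2% were called higher and 26.7% lower, 38.9% in all. The actin-related median log2 change was -0.02, against -0.21 over all genes. It was 0.159 under upper quartile, 0.234 under TMM and 0.123 under quantile scaling. The 6 higher calls numbered 3 without induced 1 and 3 without induced 2, and the 4 lower calls numbered 2 without induced 2 and 2 without control 1. The 10 tubulin-related members had a median of -0.20, near the -0.21 of all genes. The tubulin-related median was 0.06 under TMM scaling and 0.016 with the median of all genes set to 0. Summed over genes per length, tubulin-related RPKM was 410.1 and 336.4 in induced libraries, against 905.4 and 848.4 in controls, a mean of 373 ± 52.1 when induced and 877 ± 40.3 in controls (SD, n = 2 each). Actin-related RPKM summed to 9078 and 7320 when induced and 9436 and 7600 in controls, where the libraries of a group differed more than the groups. The ratio of the actin-related to the tubulin-related sum was 22.1 and 21.8 in induced libraries, against 10.4 and 8.96 in controls, a difference of 1.18 on the log2 scale. Without the most abundant member on each side that difference was 1.24, and without STMN1 it was 1.11. It was 1.09 between the 2 libraries numbered 1 and 1.28 between the 2 numbered 2. No p-value is given for these sums, since they are scores over chosen members. Over the 12 cell-division markers, 12 of 12 were called lower (median log2 change -2.28), with summed RPKM of 90.2 and 105.1 when induced, against 487.8 and 546.7 in controls. The part of that difference in the tubulin, stathmin and B-type lamin values was not tested.

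**Figure D4:**
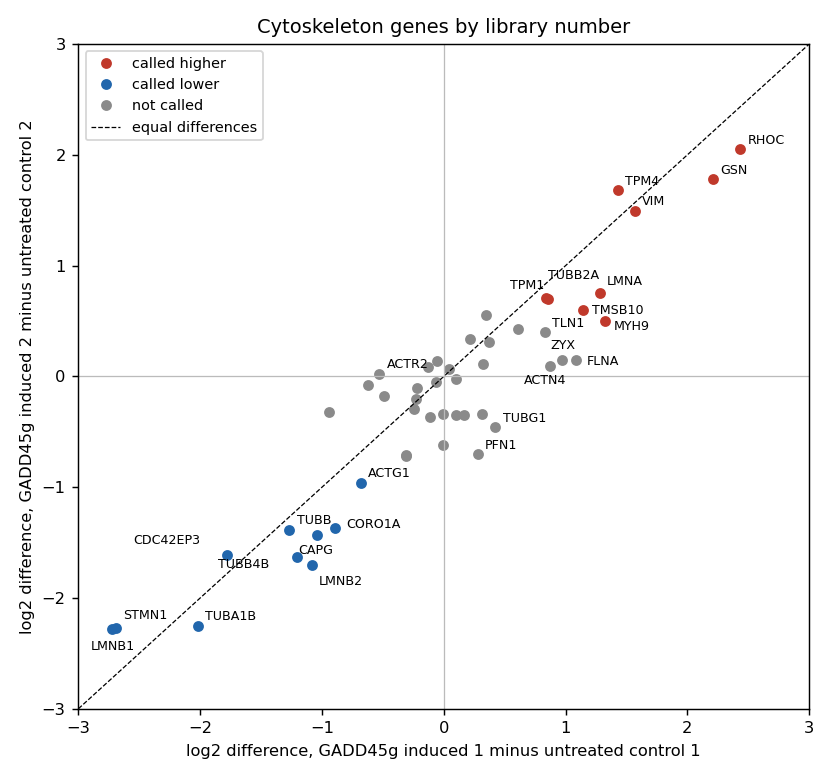
Log2 difference of RPKM + 1 between the 2 libraries numbered 1 (x axis) and between the 2 numbered 2 (y axis), GADD45g induced minus untreated control, 1 point per tested member; the dashed line marks equal differences. RHOC, GSN, TPM4 and VIM lie far up near the line, STMN1, LMNB1 and TUBA1B far down, and FLNA (1.09 and 0.15) lies off it.

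Both libraries numbered 1 carry the epithelial transcripts, so differences were also read within each number. All 19 called members had the same sign within number 1 and within number 2. This follows from their groups not overlapping, which also held for 70.0% of all genes. The separation was unequal for actin-binding genes with a low control 1: MYH9 differed by 1.33 on the log2 scale within number 1 and by 0.50 within number 2, FLNA by 1.09 and 0.15, ZYX by 0.97 and 0.15, and ACTN4 by 0.87 and 0.09. Tubulin-system decreases were present in both numbers, with STMN1 at -2.69 and -2.27, TUBA1B at -2.02 and -2.25 and TUBB at -1.27 and -1.38. TUBB4B was at -1.20 within number 1 and -1.63 within number 2. The medians over actin-related members were 0.019 within number 1 and 0 within number 2, and those over tubulin-related members -0.073 and -0.402.

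Promoter sequence was examined for motifs with known links to these gene groups. The CArG box is the binding element of serum response factor, whose cofactor is held inactive by actin monomers, and the CHR element (searched as TTTGAA, or TTCAAA on the other strand) and the CCAAT box (CCAAT, or ATTGG on the other strand) are frequent in promoters of cell-cycle genes. RefSeq promoters (GRCh38.p14, from 250 bases before to 50 bases after a start) were found for 49 of the 53 members, 82 promoters in all. A CArG box was in 4 of the 82 (4.88%), against 1.29% of all 35116 promoters, a CHR element in 14 (17.07%), against 15.16%, and a CCAAT box in 29 (35.37%), against 34.61%. Of the 16 tubulin-related promoters, 0 held a CArG box, 4 a CHR element and 9 a CCAAT box. Some of these promoters are starts of the same gene, and they include genes not called. Of the 19 promoters of members called lower, 1 held a CArG box (5.26%), 5 a CHR element (26.32%) and 6 a CCAAT box (31.58%). A CArG box that begins with CCAAT counts under both motifs. The 4 promoters with a CArG box are shown because they belong to 1 gene called lower (ACTG1), 1 called higher (TPM4) and 2 not called (FLNA and ACTN1). Of the 4 tubulin-related promoters with a CHR element, 3 are listed starts of TUBA1C, which was not called (adjusted p = 0.394), and 1 is that of TUBB4B, called lower. None of the listed promoters of TUBA1B, TUBB and STMN1, the other tubulin-related genes called lower, holds these letters. The TUBB4B promoter is shown beside the 4 as an example from the tubulin side, chosen after its values were seen. Each line gives the 250 bases before the start, on the gene's strand, 5′ to 3′, with the motif in capitals, at chr17:81512800-81513049 (minus strand), chr19:16067288-16067537 (plus), chrX:154374635-154374884 (minus), chr14:68977567-68977816 (minus) and chr9:137241037-137241286 (plus).
ACTG1: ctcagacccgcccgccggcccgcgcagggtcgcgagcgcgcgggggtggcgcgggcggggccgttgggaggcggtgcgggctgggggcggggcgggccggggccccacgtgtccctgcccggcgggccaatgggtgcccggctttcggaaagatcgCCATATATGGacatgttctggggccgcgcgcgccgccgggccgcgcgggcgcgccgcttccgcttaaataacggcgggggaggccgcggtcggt
TPM4: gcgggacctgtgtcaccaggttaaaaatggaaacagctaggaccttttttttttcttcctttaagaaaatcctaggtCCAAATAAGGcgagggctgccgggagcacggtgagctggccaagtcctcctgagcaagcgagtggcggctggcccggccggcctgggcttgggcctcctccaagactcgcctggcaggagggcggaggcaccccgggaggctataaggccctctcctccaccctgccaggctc
FLNA: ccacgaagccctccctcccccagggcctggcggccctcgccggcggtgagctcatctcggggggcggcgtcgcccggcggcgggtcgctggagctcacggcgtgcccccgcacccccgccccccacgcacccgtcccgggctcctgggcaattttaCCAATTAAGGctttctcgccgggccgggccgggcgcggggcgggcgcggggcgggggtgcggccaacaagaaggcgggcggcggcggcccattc
ACTN1: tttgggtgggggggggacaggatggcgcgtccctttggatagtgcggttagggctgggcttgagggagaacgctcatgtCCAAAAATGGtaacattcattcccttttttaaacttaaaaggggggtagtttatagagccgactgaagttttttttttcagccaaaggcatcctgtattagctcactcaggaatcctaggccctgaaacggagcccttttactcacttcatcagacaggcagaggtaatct
TUBB4B: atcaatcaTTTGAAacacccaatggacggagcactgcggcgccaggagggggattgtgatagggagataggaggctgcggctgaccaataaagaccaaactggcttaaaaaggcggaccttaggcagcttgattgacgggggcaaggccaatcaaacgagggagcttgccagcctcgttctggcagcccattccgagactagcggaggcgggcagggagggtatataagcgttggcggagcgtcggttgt
The box begins 94 bases before the start in ACTG1 and in FLNA, 173 bases before 1 of the 3 listed starts of TPM4 and 171 bases before 1 of the 4 listed starts of ACTN1, and the TUBB4B element begins 242 bases before it. The 4 genes with a box changed by -0.82 (ACTG1), 1.56 (TPM4), 0.62 (FLNA) and -0.01 (ACTN1) on the log2 scale, so they did not share a direction. A match describes the letters of these windows and not a bound site.

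Other genes of the same machinery, from a list of 133 symbols, were read against the members. Of these, 127 were matched and 102 tested, and 15 were called higher and 15 lower (14.7% each, against 12.2% and 26.7% of all genes). Without induced 1 or control 1 the 30 calls numbered 20, and without induced 2 they numbered 19. On the actin side 12 of 61 were called higher and 7 lower. RHOH was at 22.3 and 21.7 RPKM in induced libraries, against 1.80 and 1.92 RPKM in controls (log2 change 3.01 ± 0.21, adjusted p = 4.3e-06). SSH1, the slingshot phosphatase that activates cofilin, was at 32.7 and 38.7 RPKM when induced, against 5.83 and 7.26 RPKM in controls (log2 change 2.29 ± 0.23). The formins DAAM1 and FMNL1, which elongate unbranched filaments, had log2 changes of 1.40 ± 0.22 and 1.31 ± 0.25. ANLN, anillin, a scaffold of the cytokinetic ring, was at 4.29 and 5.22 RPKM when induced, against 26.6 and 28.6 RPKM in controls (log2 change -2.32 ± 0.22), and ARHGDIB had a log2 change of -1.57 ± 0.26. Of 31 microtubule genes tested, 3 were called higher and 4 lower: MAP7, a microtubule-binding protein, was at 14.7 and 11.8 RPKM when induced, against 2.01 and 1.75 RPKM in controls (log2 change 2.30 ± 0.22), while CKAP5, a microtubule polymerase, had a log2 change of -1.28 ± 0.24 and the gamma-tubulin complex genes TUBGCP4 and TUBGCP3 had -1.24 ± 0.21 and -1.02 ± 0.23. MAP1S and CLIP1, microtubule-binding proteins, were the other two higher calls, at log2 changes of 1.03 and 0.88. Of 10 lamina and filament partners tested, 0 were called higher and 4 lower by limma (TMPO -1.27, BANF1 -1.11, ICMT -0.91 and SUN2 -0.90 on the log2 scale). TMPO and SUN2 are nuclear envelope proteins, BANF1 binds DNA at the envelope, and ICMT modifies prenylated proteins such as B-type lamins. At an unadjusted p under 0.05 the higher count was also 0.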

How the data were processed

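Total RNA of 4 MOLM-13 libraries was sequenced after column extraction, per the labels' protocols; strand, read length, RNA selection and the treatment of reads matching several genes are not given in the sources used. The build hg19 and the tools Cuffdiff, Cuffnorm and TopHat appear, without roles, among the submitters' processing notes. Each deposited table holds RPKM per Ensembl ID, per the file headers. The authors' low RPKM (up to 20 reads) were whole multiples of 1 read, within 0.01 reads, in 100.0% of values checked, which gave each library's depth. Only 27332 IDs (47.3%) of induced 1 could be used; all matched members are among them. Symbols were found for 51996 IDs.

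Values sharing a symbol were added up. Genes averaging 1 RPKM or more, with a value in all 4 libraries, were kept, and log2(RPKM + 1) fitted by group with limma 3.58.1 in R 4.3.3 (trend, 2 residual and 8.72 prior degrees of freedom). P-values are two-sided and Benjamini-Hochberg adjusted over all 10771 genes, with a threshold of 0.05. Fold changes on this log2 scale understate the change of low genes; folds given as such are ratios of mean RPKM. The fit was also run on simulated data with independent errors and increases planted in a small set of genes. These data hold mostly lower calls and correlated same-numbered libraries, so that run cannot vouch for the calls. Counts of reads cover counting error only. Tables and motif searches used Python 3.11.15 and pandas 2.3.3.

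The members, role groups and other lists were chosen with earlier results of these data known. Values of every library are given for called members and for members whose libraries differ more than 3-fold by number; other members named with values were chosen after their values were seen. Other cytoskeleton genes named are up to 6 called ones with the largest log2 change in each of the 3 lists.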

Additional observations from a re-analysis of the deposited data

How the results depend on the processing

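Of the 19 called members, 12 were called in each of the 17 alternatives, 7 lost the call in at least 1 (ACTG1, TMSB10, CAPG, MYH9, TPM1, LMNA and TUBB2A), and 6 others gained one (ACTB, ARPC3, MSN, TLN1, ZYX and FLNA). Without a filter on low values there were 4 members called higher, 3 actin-related higher and 2 lower, 0 tubulin-related higher, 16 other cytoskeleton genes, and 823 genes higher and 1639 lower in all. The tubulin-related higher call (TUBB2A) was also 0 at a filter of 5 RPKM, which removes it, and with genes missing from induced 1 kept. Scaling moved the actin-related median to 0.159 (upper quartile), 0.234 (TMM), 0.123 (quantile) and 0.196 (median of all genes set to 0, added after seeing the data), and the ratio of the sums to 1.051 with quantile normalization; upper quartile and TMM scaling cannot change a ratio within a library. Calls over all genes, 1314 higher and 2871 lower as reported, were 1700 and 2293 with upper quartile scaling, 1956 and 2042 with TMM, 1874 and 2080 with quantile normalization and 1877 and 2045 with the median set to 0. Leaving out 1 library gave 4 to 8 members higher and 8 to 9 lower, 3 to 7 actin-related higher and 2 to 3 lower, 0 to 1 tubulin-related higher, 19 to 25 other cytoskeleton genes, 798 to 1133 genes higher and 1766 to 2449 lower, and an actin-related median of -0.126 to 0.124; the lone library of a group is then assumed to vary like the other group. Members kept to those in all 4 files gave no separate value, since every matched member is.

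The libraries' numbers come from title suffixes that the labels do not explain, and deviations of same-numbered libraries correlated at 0.349 over all genes and 0.415 over the members. With the number as a block (replicate block), 11 members were called higher and 12 lower, ACTB (adjusted p = 0.0415), ARPC3 (0.0305), TLN1 (0.0354) and FLNA (0.0205) gaining a call, with 8 actin-related members higher and 6 lower, 1594 genes higher and 3393 lower. Since there are 2 pairs and no label explains the number, the block is given only as an alternative.

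Sign changes of single members in these settings were confined to members that were not called. Log2 changes turned positive with upper quartile scaling for ACTN1 0.162, ARPC5 0.155, EZR 0.001, VCL 0.113, RHOA 0.012, TUBA4A 0.083, TUBB6 0.046 and TUBG1 0.147, with TMM scaling for ACTN1 0.248, ACTR2 0.012, ARPC5 0.242, CFL1 0.021, PFN1 0.054, EZR 0.087, VCL 0.197, TPM3 0.042, RHOA 0.10, TUBA4A 0.169, TUBB6 0.129 and TUBG1 0.228, with quantile normalization for ACTN1 0.153, ARPC5 0.082, VCL 0.094, TUBA4A 0.075, TUBB6 0.035 and TUBG1 0.154, and with the median set to 0 for ACTN1 0.202, ARPC5 0.191, PFN1 0.000, EZR 0.038, VCL 0.154, RHOA 0.046, TUBA4A 0.122, TUBB6 0.090 and TUBG1 0.196. With 1 library left out the log2 changes spanned ACTN1 -0.263 to 0.242, ACTR2 -0.693 to 0.187, ARPC1B -0.689 to 0.058, ARPC5 -0.422 to 0.380, CFL1 -0.498 to 0.015, PFN1 -0.616 to 0.194, TMSB4X -0.843 to 0.176, VIL1 -0.263 to 0.351, EZR -0.382 to 0.035, VCL -0.171 to 0.055, RHOA -0.356 to 0.025, TUBA4A -0.294 to 0.115, TUBB6 -0.411 to 0.167, TUBG1 -0.246 to 0.214 and MARCKSL1 -0.088 to 0.166. The cause was not tested. With 15683931 to 18895470 reads a library, depth limits MYL9, RHOB and TUBB2A.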

Other observations

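Cytoskeleton genes absent from the part of induced 1 that was used have values in 3 libraries and no test. BRK1, a small subunit of the WAVE complex, was at 182.8 RPKM in induced 2, against 140.7 and 98.8 RPKM in the controls. TWF2, a twinfilin that binds actin monomers, was at 12.5 RPKM in induced 2, against 22.9 and 20.03 RPKM in the controls. The Arp2/3 subunit genes ARPC1A and ARPC4 were at 22.7 and 14.3 RPKM in induced 2, against 18.5 and 19.1 RPKM for ARPC1A and 18.2 and 16.9 RPKM for ARPC4 in the controls. CORO7, a coronin, was at 1.30 RPKM in induced 2, against 2.17 and 1.98 RPKM in the controls. TUBB3, a neuronal beta-tubulin, was at 0.102 RPKM in induced 2, against 0.0174 and 0.0416 RPKM in the controls.

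Of 12 markers of fibroblasts and smooth muscle, 2 passed the filter and 0 were called by limma, with summed RPKM of 7.87 and 7.26 in induced libraries and 5.59 and 5.23 in controls. Of 10 myeloid markers, 7 were tested, with a median log2 change of 0.36, 1 called higher and 1 lower. ITGAM, an integrin of myeloid cells, was at 21.2 and 17.6 RPKM in induced libraries, against 8.89 and 12.9 RPKM in controls (log2 change 0.79 ± 0.25, limma adjusted p = 0.0268). LYZ, lysozyme, was at 267.8 and 242.4 RPKM in induced libraries, against 1173 and 867.6 RPKM in controls (log2 change -1.98 ± 0.28, limma adjusted p = 0.000326). The list summed to 528.5 and 492.3 RPKM when induced and 1341 and 1084 RPKM in controls, so the sum and the median differ in direction. The other 5 tested were not called, among them ANPEP at 94.5 and 95.1 RPKM when induced and 45.5 and 81.2 RPKM in controls, and SPI1 at 101.4 and 83.99 RPKM when induced and 68.7 and 74.7 RPKM in controls.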
